A study of Mus musculus with 8 samples.

Results

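Immediate early genes are switched on within minutes of a stimulus, without new protein synthesis. The group described here has 10 members, chosen by symbol: Fos, Fosb, Jun, Junb, Jund, Egr1, Atf3, Ier2, Zfp36 and Dusp1. All 10 were found among the 31053 genes of the deposited matrices, and all 10 passed the filter on low counts in each comparison that was tested.

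The study measured single-cell RNA in the brain cortex of 8-week-old mice in 2 experiments, one on laminin alpha 4 (Lama4) and one on laminin alpha 5 (Lama5), both basement membrane chains of brain vessels. The first compared Lama4-/- mice (Lama4 KO), which lack the gene in every cell, with wild-type controls (Lama4 WT). The second compared Tek-Cre:Lama5-/- mice (Lama5 KO) with separate wild-type controls (Lama5 WT). Tek-Cre deletes a gene in endothelial cells and also in much of the blood lineage; which of the other cell classes carry the deletion was not tested. In each group the brains of 3 mice were pooled, and the labels list 2 samples a group. The samples of the Lama4 KO were identical files and count as 1 library, so 7 distinct libraries remained and that KO has no test. The libraries of a group share a pool of mice, so every p-value measures only the spread between libraries of 1 pool, without the spread between mice.

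AP-1 is a dimer of a Fos protein and a Jun protein, and it activates or represses many genes of growth, stress and inflammation. Fos, Fosb, Jun and Junb are induced by MAP kinase and calcium signals, for Fos through serum response factor and CREB, while Jund is present at a steadier level. The same genes are known to be induced when tissue is digested with enzymes at body temperature, and are therefore often read as a mark of dissociation in single-cell work. Per the labels' protocols, all groups were digested for 60 min at 37 °C in 30 U/ml papain with DNase and Liberase, and myelin was removed through 22% BSA.

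The 7 libraries held 35479306 to 48314458 UMIs (unique molecular identifiers, counted RNA molecules), and 47239 cells were kept. Comparisons were made in the 5 named classes that held 50 or more cells of each library: endothelial-like (24383 cells), microglia-like (7606), smooth muscle-like (2645), astrocyte-like (2031) and pericyte-like (1553). Their clusters met 6 or more of the 6 to 8 markers of their class. A further 2720 cells in 5 clusters stayed unnamed, 4.51% to 7.07% of a library; the largest of these clusters met all 8 endothelial markers but had Stmn2, a neuroblast marker, among its leading genes. Between 5 and 23 cell barcodes were shared by any pair of libraries. As a check of the labels, Lama4 was counted once in the endothelial-like cells of the Lama4 KO library, against 829 and 693 UMIs in its WT. Lama5 was at 19.1 and 20.7 CPM (UMI counts scaled to a class total of 1e6) in the Lama5 KO against 37.9 and 36.8 in its WT; these are tags of the 3′ end, which may lie outside the deleted part.

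The clusters of some classes divided by experiment. Of the endothelial-like clusters, 3 held 91.3% and 90.9% of the cells in the Lama5 WT libraries and another 2 held 82.9% and 83.6% in the Lama4 WT libraries; a cluster led by Slc38a5, Lcn2 and Vwf was filled by both, with 202 to 308 cells in every library. Of the microglia-like clusters, one led by C1qc and Ctss held 1371 of 1523 and 1318 of 1460 Lama4 WT cells, one led by Plek and Il1a held 68.4% and 64.4% of the Lama5 WT cells, and one led by C1qc and Csf1r was filled by both. Values of the 10 members between experiments are therefore given for the whole class and again within the shared cluster. Other gene lists are given for whole classes only. The 10 members and the other listed genes were kept out of the genes used for clustering.

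The promoters of the members are shown because all 10 genes were higher in the endothelial-like cells of one experiment, as given further on. RefSeq promoter entries (build GRCm38.p6) were matched for 8 of the 10 genes, all except Egr1 and Ier2. The cAMP response element TGACGTCA is bound by CREB and ATF proteins, and its core TGACG, searched on both strands, lay in the 250 bases before the start of 5 of the 8. These were Fos, Fosb, Junb, Atf3 and Dusp1, chosen for print after this search. Of all 32851 promoters 17.8% held this core in the same window. The full element was in Dusp1 alone, where it holds the core on both strands; 1.55% of all promoters held it. The AP-1 site TGANTCA was in none of the 8 windows and in 6.75% of all promoters. The serum response CArG box was in the Zfp36 window, with a share of 1.47% over all promoters. The TATA box TATAAA was in the Fos window, with 12.4% over all. The Sp1 site GGGCGG was in 6 of the 8 windows and in 32.7% of all promoters. The member windows were richer in GC, with a mean of 62.6% against a median of 52.4% over all promoters. These are letter matches in a short window and say nothing of binding. The windows below run 5′ to 3′ on the gene's strand, with TGACG or its reverse complement in capitals. They lie at chr12:85473640-85473889 (plus strand), chr7:19310046-19310295 (minus), chr8:84978749-84978998 (minus), chr1:191183334-191183583 (minus) and chr17:26508473-26508722 (minus).
Fos: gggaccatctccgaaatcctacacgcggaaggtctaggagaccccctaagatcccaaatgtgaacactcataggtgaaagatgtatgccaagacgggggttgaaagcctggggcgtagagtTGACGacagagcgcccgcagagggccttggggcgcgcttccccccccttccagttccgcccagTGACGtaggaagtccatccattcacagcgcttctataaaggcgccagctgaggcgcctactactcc
Fosb: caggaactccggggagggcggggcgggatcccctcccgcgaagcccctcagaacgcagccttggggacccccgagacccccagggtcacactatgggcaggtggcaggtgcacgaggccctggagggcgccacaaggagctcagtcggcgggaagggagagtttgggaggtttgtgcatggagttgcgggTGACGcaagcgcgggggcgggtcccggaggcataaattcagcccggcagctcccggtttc
Junb: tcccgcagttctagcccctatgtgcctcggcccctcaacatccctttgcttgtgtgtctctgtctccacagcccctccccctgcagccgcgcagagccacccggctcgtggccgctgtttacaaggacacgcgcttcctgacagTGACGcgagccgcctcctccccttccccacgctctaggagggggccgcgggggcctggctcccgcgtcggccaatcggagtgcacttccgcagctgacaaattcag
Atf3: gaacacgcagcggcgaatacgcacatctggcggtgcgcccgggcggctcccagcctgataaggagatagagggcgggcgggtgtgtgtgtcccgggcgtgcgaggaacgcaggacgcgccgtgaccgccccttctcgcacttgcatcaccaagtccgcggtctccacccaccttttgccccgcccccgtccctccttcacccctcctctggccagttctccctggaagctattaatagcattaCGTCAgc
Dusp1: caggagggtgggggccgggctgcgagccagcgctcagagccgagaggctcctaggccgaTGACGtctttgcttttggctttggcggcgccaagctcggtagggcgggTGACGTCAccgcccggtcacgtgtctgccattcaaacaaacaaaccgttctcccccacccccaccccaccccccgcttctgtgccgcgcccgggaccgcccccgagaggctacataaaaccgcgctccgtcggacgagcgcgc
The core began 129 and 66 bases before the start in Fos, 60 before it in Fosb, 106 in Junb, 7 in Atf3, and 191, 143 and 140 in Dusp1.

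In GENCODE M21 (GRCm38), Fos is on chromosome 12 and Atf3 on chromosome 1, Fosb and Zfp36 are on chromosome 7, and Dusp1 is on chromosome 17. Jun is on chromosome 4, Junb, Jund and Ier2 on chromosome 8, and Egr1 on chromosome 18. Jun, Junb, Jund, Zfp36 and Dusp1 each overlap an annotated gene of the opposite strand that is also in the files; whether the counting used the strand is not given in the sources used here.

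The summed share of the 10 genes differed widely between cell classes, and for several classes between the experiments, so it is given for each experiment. In perivascular macrophage-like cells it was 1.85% of all UMIs in the libraries of the Lama4 experiment and 2.00% in those of the Lama5 experiment, in smooth muscle-like cells 1.69% and 1.65%, and in microglia-like cells 1.45% and 1.39%. Endothelial-like cells had 0.697% in the Lama4 experiment (0.671% to 0.724% per library) and 1.84% in the Lama5 experiment (1.74% to 1.91%). Pericyte-like cells had 0.798% and 1.78%. Their larger cluster alone had 0.243%, 0.252% and 0.281% in the libraries of the Lama4 experiment and 1.62% to 1.86% in those of the Lama5 experiment. Ependymal-like cells had 0.928% and 1.84%, and fibroblast-like cells 0.687% and 1.23%. The shares were 0.589% and 0.506% in T or NK-like, 0.385% and 0.49% in B lineage-like, 0.252% and 0.222% in neuroblast-like and 0.276% and 0.206% in oligodendrocyte-like cells. They were 0.081% and 0.469% in astrocyte-like and 0.059% and 0.036% in choroid plexus-like cells. Some of these classes were small. The Lama4 and Lama5 experiments held 169 and 14 choroid plexus-like, 84 and 92 T or NK-like, 105 and 60 B lineage-like and 128 and 65 fibroblast-like cells. The place of several classes in this order, among them endothelial-like and pericyte-like cells, therefore differed between the experiments.

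The order of classes differed between genes. For Fos over whole classes it was the same in both experiments, smooth muscle-like, pericyte-like, endothelial-like, microglia-like and astrocyte-like from high to low. In the Lama5 experiment the ranges of pericyte-like and endothelial-like cells overlapped, as did those of microglia-like and astrocyte-like cells. Zfp36, whose protein binds AU-rich sequences and speeds the decay of cytokine mRNAs, was highest in microglia-like cells in all 7 libraries. Dusp1, a phosphatase that switches off MAP kinases, and Ier2, a nuclear protein of little known function, were highest in endothelial-like cells by their mean in both experiments. For Dusp1 the endothelial-like and smooth muscle-like ranges overlapped in the Lama4 experiment. Jun, Junb, Jund, Egr1 and Atf3 had another leading class in each experiment: Jun and Junb were highest in microglia-like cells and Jund, Egr1 and Atf3 in smooth muscle-like cells in the Lama4 experiment. In the Lama5 experiment Jun, Jund and Egr1 were highest in pericyte-like, Junb in smooth muscle-like and Atf3 in microglia-like cells. The smooth muscle-like range overlapped the microglia-like range for Atf3 in the former and the endothelial-like range for Junb in the latter. All 10 were lowest by their mean in astrocyte-like cells in both experiments; the Fos range there overlapped that of microglia-like cells in the Lama5 experiment, and the Jun range that of smooth muscle-like cells. With the larger pericyte-like cluster in place of the class, which held 84.2%, 85.4% and 88.7% of it in the Lama4 experiment, Fos was at 373, 344 and 250.1 CPM there, below endothelial-like and microglia-like cells. The order of the 5 classes then changed for 6 genes in the Lama4 experiment (Fos, Fosb, Junb, Egr1, Ier2 and Zfp36) and for 1, Fos, in the Lama5 experiment, and the leading class of each gene did not. The plot of levels by library gives all values.

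**Figure D1:**
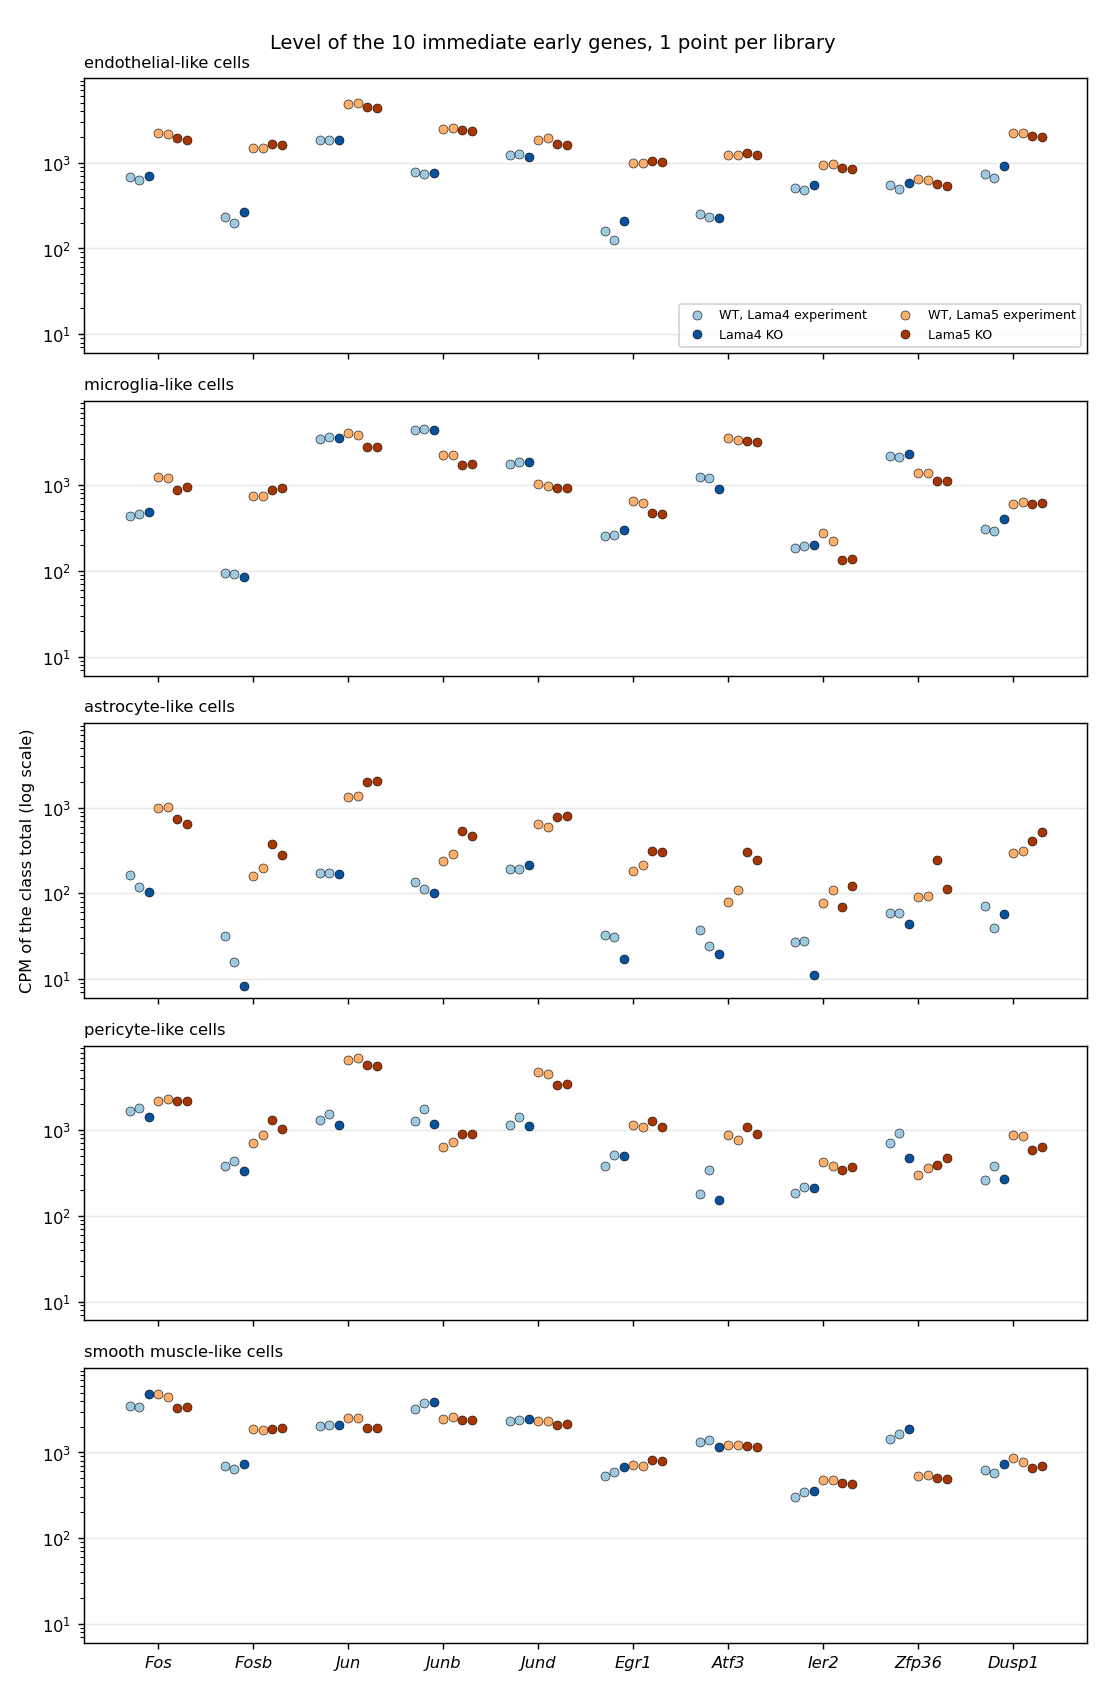
Level of each gene in CPM of its class total (log axis) for the 5 cell classes, 1 point per library coloured by group. In endothelial-like and astrocyte-like cells all 10 genes lie higher in the Lama5 WT than in the Lama4 WT libraries, and in microglia-like cells Junb, Jund and Zfp36 lie lower.

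The comparison of the WT groups asks how far the level of these genes depends on the experiment, with no knockout involved. Experiment, pool of mice, digestion run and sequencing run cannot be told apart here. In endothelial-like cells all 10 genes were higher in the Lama5 WT, with edgeR's quasi-likelihood test and Benjamini-Hochberg adjustment over 12999 genes. This background was wide, since 54.2% of all tested genes passed, 28.2% higher and 26.0% lower. The median fitted log2 difference of the 10 was 1.79, and that of all genes was 0.00.

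Fos was at 682 and 637 CPM in the Lama4 WT libraries, 708 in the Lama4 KO library, 2196 and 2169.6 in the Lama5 WT libraries and 1942 and 1853 in the Lama5 KO libraries. Every Lama5 library was above every Lama4 library, and the WT difference was 1.84 ± 0.033, adjusted p = 2.7e-14 (log2 ± SE, as in what follows). Fosb, a Fos family protein with a truncated long-lived splice form, was at 231 and 199.6 CPM in the Lama4 WT libraries, 263 in the Lama4 KO library, 1476 and 1494 in the Lama5 WT libraries and 1663 and 1619 in the Lama5 KO libraries. It differed by 2.90 ± 0.050, adjusted p = 2.3e-14. Jun, the main partner of Fos in AP-1, was at 1856 and 1863 CPM in the Lama4 WT libraries, 1862 in the Lama4 KO library, 4864 and 4946 in the Lama5 WT libraries and 4504 and 4345 in the Lama5 KO libraries. The 3 libraries of the Lama4 experiment lay close together, far below the 4 others, and the WT groups differed by 1.52 ± 0.022, adjusted p = 5.6e-15. Junb, a Jun family member that can restrain Jun, was at 783 and 741 CPM in the Lama4 WT libraries, 754 in the Lama4 KO library, 2475 and 2528 in the Lama5 WT libraries and 2392 and 2341 in the Lama5 KO libraries. Its difference was 1.83 ± 0.030, adjusted p = 1.5e-14. Jund, the member with the steadier level, was at 1220.5 and 1271 CPM in the Lama4 WT libraries, 1178 in the Lama4 KO library, 1859 and 1929.8 in the Lama5 WT libraries and 1652 and 1621 in the Lama5 KO libraries. It had a smaller difference, 0.72 ± 0.027, adjusted p = 6.2e-11, without overlap of the groups.

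Egr1, a zinc finger factor induced through serum response elements, was at 159 and 126 CPM in the Lama4 WT libraries, 209 in the Lama4 KO library, 999 and 999 in the Lama5 WT libraries and 1034 and 1025 in the Lama5 KO libraries. Its difference was the largest of the 10, 2.92 ± 0.070, adjusted p = 5.5e-13. Atf3, a stress-induced factor of the ATF/CREB family, was at 252 and 231 CPM in the Lama4 WT libraries, 227 in the Lama4 KO library, 1234 and 1234 in the Lama5 WT libraries and 1304 and 1217 in the Lama5 KO libraries. It differed by 2.47 ± 0.037, adjusted p = 7.0e-15. Ier2 was at 506 and 479 CPM in the Lama4 WT libraries, 546 in the Lama4 KO library, 934 and 955 in the Lama5 WT libraries and 871 and 854 in the Lama5 KO libraries. The difference was 1.06 ± 0.032, adjusted p = 5.9e-12. Both feedback genes were higher too, Dusp1 by more than Zfp36. Dusp1 was at 745 and 671 CPM in the Lama4 WT libraries, 909 in the Lama4 KO library, 2199.6 and 2208 in the Lama5 WT libraries and 2029 and 2012 in the Lama5 KO libraries. Zfp36 was at 544 and 488 CPM in the Lama4 WT libraries, 585 in the Lama4 KO library, 644 and 626 in the Lama5 WT libraries and 562 and 541 in the Lama5 KO libraries. The WT differences were 1.75 ± 0.040, adjusted p = 3.1e-13 for Dusp1 and 0.41 ± 0.042, adjusted p = 2.4e-06 for Zfp36, the smallest of the 10.

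Within the Lcn2/Vwf cluster that both experiments fill, 9 genes were higher and Zfp36 was lower in the Lama5 WT, where 36.8% of 10564 genes passed. Fosb differed by 2.41, Egr1 by 1.47, Atf3 by 1.46, Dusp1 by 1.43, Fos by 0.71 and Zfp36 by -0.32 (adjusted p = 9.6e-06), so the direction of Zfp36 turned. In 4 other clusters that held at least 40 cells in each WT library the counts differed; each held under 100 cells per library in one of the experiments. All 10 genes were higher in the cluster led by Abcb1a and Cldn5 (4.24% of 9317 genes passed), and 8 were in the cluster led by Sox18 and Gkn3 (3.74% of 10010 passed). In the cluster led by Gkn3 and Abcb1a 5 were higher (3.37% of 10061 passed), with Egr1 at 1.42 and Fos at 0.15 (adjusted p = 0.35). In the cluster led by Itm2a and Cldn5 5 were higher and Jund was lower (2.87% of 10473 passed), with Egr1 at 1.95, Fos at 0.15 (adjusted p = 0.66) and Jund at -0.27 (adjusted p = 0.038). Fosb, Egr1, Atf3 and Dusp1 passed as higher in each of these 4 clusters. The Lama5 WT had fewer UMIs per endothelial-like cell (median 3194.5 and 3056 against 5779 and 5545). The share of Gm42418, a transcript that overlaps ribosomal RNA repeats, was 3.72% and 3.63% of their UMIs against 0.753% and 0.74%. The part of depth and of Gm42418 in these differences was not tested. Scaling by library totals in place of TMM (edgeR's trimmed mean scaling) moved all genes by a median of -0.12 in endothelial-like and 0.19 in microglia-like cells, and the 10 endothelial-like calls kept their direction. With library totals 20.2% of all genes were higher and 38.6% lower in endothelial-like cells.

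In microglia-like cells the genes went both ways: 6 were higher, 3 were lower and 1 did not pass in the Lama5 WT, where 52.3% of 11131 genes passed (27.1% higher and 25.2% lower). Fosb was at 95.4 and 91.9 CPM in the Lama4 WT libraries, 85.7 in the Lama4 KO library, 742 and 739.5 in the Lama5 WT libraries and 882 and 939 in the Lama5 KO libraries. It had the largest difference, 2.80 ± 0.053, adjusted p = 9.0e-24. Fos was at 442 and 459 CPM in the Lama4 WT libraries, 482 in the Lama4 KO library, 1230.2 and 1213 in the Lama5 WT libraries and 874 and 950.4 in the Lama5 KO libraries. Atf3 was at 1242 and 1213 CPM in the Lama4 WT libraries, 904 in the Lama4 KO library, 3554 and 3342 in the Lama5 WT libraries and 3266 and 3196 in the Lama5 KO libraries. Both were higher in each Lama5 WT library, by 1.25 ± 0.042, adjusted p = 9.2e-19 for Fos and 1.30 ± 0.037, adjusted p = 2.5e-20 for Atf3. Egr1 was at 255 and 263 CPM in the Lama4 WT libraries, 296 in the Lama4 KO library, 660.1 and 614 in the Lama5 WT libraries and 468 and 458 in the Lama5 KO libraries. Dusp1 was at 306 and 291 CPM in the Lama4 WT libraries, 401 in the Lama4 KO library, 611 and 632 in the Lama5 WT libraries and 609.8 and 617 in the Lama5 KO libraries. They differed by 1.11 ± 0.050, adjusted p = 5.1e-16 and 0.87 ± 0.049, adjusted p = 6.0e-14. Ier2 was at 183 and 195 CPM in the Lama4 WT libraries, 201 in the Lama4 KO library, 275 and 226 in the Lama5 WT libraries and 133 and 139 in the Lama5 KO libraries. The WT groups did not overlap, and the difference was 0.22 ± 0.070, adjusted p = 0.0092.

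The genes that were lower in the microglia-like cells of the Lama5 WT were Junb, Jund and Zfp36. Junb was at 4393 and 4539 CPM in the Lama4 WT libraries, 4371 in the Lama4 KO library, 2255 and 2277 in the Lama5 WT libraries and 1697 and 1769 in the Lama5 KO libraries. The 3 Lama4 libraries were all above the Lama5 libraries, and the WT difference was -1.17 ± 0.032, adjusted p = 1.6e-20. Jund was at 1746 and 1868 CPM in the Lama4 WT libraries, 1861 in the Lama4 KO library, 1043 and 977 in the Lama5 WT libraries and 932 and 926 in the Lama5 KO libraries. Zfp36 was at 2209 and 2156 CPM in the Lama4 WT libraries, 2325 in the Lama4 KO library, 1373 and 1388 in the Lama5 WT libraries and 1112 and 1118 in the Lama5 KO libraries. The differences were -1.02 ± 0.041, adjusted p = 4.8e-17 for Jund and -0.85 ± 0.036, adjusted p = 1.2e-16 for Zfp36. Jun was at 3420.1 and 3618 CPM in the Lama4 WT libraries, 3589.6 in the Lama4 KO library, 4006 and 3831 in the Lama5 WT libraries and 2786 and 2796 in the Lama5 KO libraries. Its fitted difference was -0.03 (adjusted p = 0.45); scaled by library totals it was 0.16 and passed (adjusted p = 0.00043), and 7 members were then higher and 3 lower (34.7% and 17.0% of all genes). Within the shared cluster 4 genes were higher and 4 lower (13.3% of 4188 genes passed). There Fosb differed by 1.61, Fos by 1.08, Dusp1 by 1.18, Jund by -1.40, Junb by -1.03 and Jun by -0.66. Atf3 and Ier2 did not pass there, at 0.14 and -0.59.

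All 10 genes were higher in the astrocyte-like cells of the Lama5 WT, where 13.2% of 9961 genes passed (6.98% higher and 6.22% lower). Jun was at 171 and 173 CPM in the Lama4 WT and 1343 and 1363 in the Lama5 WT, a difference of 2.96 ± 0.083, adjusted p = 4.0e-15. Fos was at 164 and 117 CPM in the Lama4 WT and 992 and 1006 in the Lama5 WT (2.81 ± 0.12, adjusted p = 4.8e-12). Fosb, at 32.1 and 15.8 CPM in the Lama4 WT and 161 and 197 in the Lama5 WT, differed by 2.88 ± 0.20, adjusted p = 5.4e-09. The other differences ran from 0.64 for Zfp36 and 1.07 for Junb to 2.61 for Egr1. In astrocyte-like cells with under 3 UMIs of microglial markers 9 of the 10 remained higher, with Zfp36 at 0.29 (adjusted p = 0.37). The astrocyte-like clusters were filled unequally: one led by Aldoc and Cxcl14 held 22.3% and 21.3% of the cells in the Lama4 WT against 0% and 0.867% in the Lama5 WT. Within the cluster led by Dclk1 and Aqp4 all 10 genes were higher (8.40% of 8979 genes passed), with Egr1 at 3.65, Junb at 1.65 and Zfp36 at 0.98. Within the cluster led by Dclk1 and Gria2 6 were higher (7.07% of 5315 passed), with Jun at 2.49 and Dusp1 at 2.19. There Ier2 at 0.46, Junb at 0.19, Egr1 at 0.17 and Zfp36 at 0.11 did not pass (adjusted p = 0.30, 0.58, 0.76 and 0.82).

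In pericyte-like cells 8 genes were higher and 2, Junb and Zfp36, were lower in the Lama5 WT, where 10.6% of 8069 genes passed (6.33% higher and 4.24% lower). Jun was at 1293 and 1554 CPM in the Lama4 WT and 6603 and 6878 in the Lama5 WT (2.32 ± 0.082, adjusted p = 1.5e-12) and Jund at 1139 and 1417 CPM in the Lama4 WT and 4715 and 4563 in the Lama5 WT (1.94 ± 0.091, adjusted p = 6.4e-11). Junb was at 1283 and 1738 CPM in the Lama4 WT and 638 and 723 in the Lama5 WT (-1.07 ± 0.13, adjusted p = 1.4e-05) and Zfp36 at 711 and 923 CPM in the Lama4 WT and 302 and 362 in the Lama5 WT (-1.21 ± 0.14, adjusted p = 1.2e-05). These values depended on a small cluster led by Col3a1 and Ifitm1, which held 47 and 42 cells in the Lama4 WT and 9 and 7 in the Lama5 WT. Without it all 10 genes were higher, with Jun at 4.08, Atf3 at 4.07, Egr1 at 3.25, Fos at 2.63, Junb at 1.38 (adjusted p = 9.9e-14) and Zfp36 at 1.24 (adjusted p = 1.4e-08), and 16.2% of 7357 genes passed. Over the whole class, library totals in place of TMM gave the members the same directions, with 4.80% of all genes higher and 5.99% lower. In the larger pericyte-like cluster alone, Fos was at 373 and 344 CPM in the Lama4 WT and 1988 and 2180.4 in the Lama5 WT.

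Smooth muscle-like cells formed 1 cluster filled by every library and had small differences with the exception of Fosb and Zfp36. Of the 10 genes 6 were higher and 4 lower in the Lama5 WT, where 27.7% of 10060 genes passed (14.6% higher and 13.1% lower). Fosb was at 688 and 647 CPM in the Lama4 WT and 1858 and 1815 in the Lama5 WT (1.38 ± 0.048, adjusted p = 3.1e-16), and Zfp36 was at 1429.7 and 1623 CPM in the Lama4 WT and 533 and 547 in the Lama5 WT (-1.58 ± 0.056, adjusted p = 3.1e-16). Fos was at 3439 and 3349 CPM in the Lama4 WT and 4834 and 4399 in the Lama5 WT (0.36 ± 0.039, adjusted p = 2.0e-07). Ier2, Dusp1, Egr1 and Jun differed by 0.47, 0.36, 0.25 and 0.21. Junb differed by -0.56, Atf3 by -0.24 and Jund by -0.11 (adjusted p = 0.042); with library totals 3 of these 4 were called, and 18.5% of all genes were higher and 8.95% lower. At the finer clustering the Jun value was -0.51, the opposite direction (adjusted p = 6.4e-07 by edgeR). The smooth muscle-like class was smaller there and the pericyte-like class larger, so the classes did not hold the same cells. It held 214 and 245 cells in the Lama4 WT and 141 and 168 in the Lama5 WT, against 336, 349, 398 and 421 in the main clustering.

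**Figure D2:**
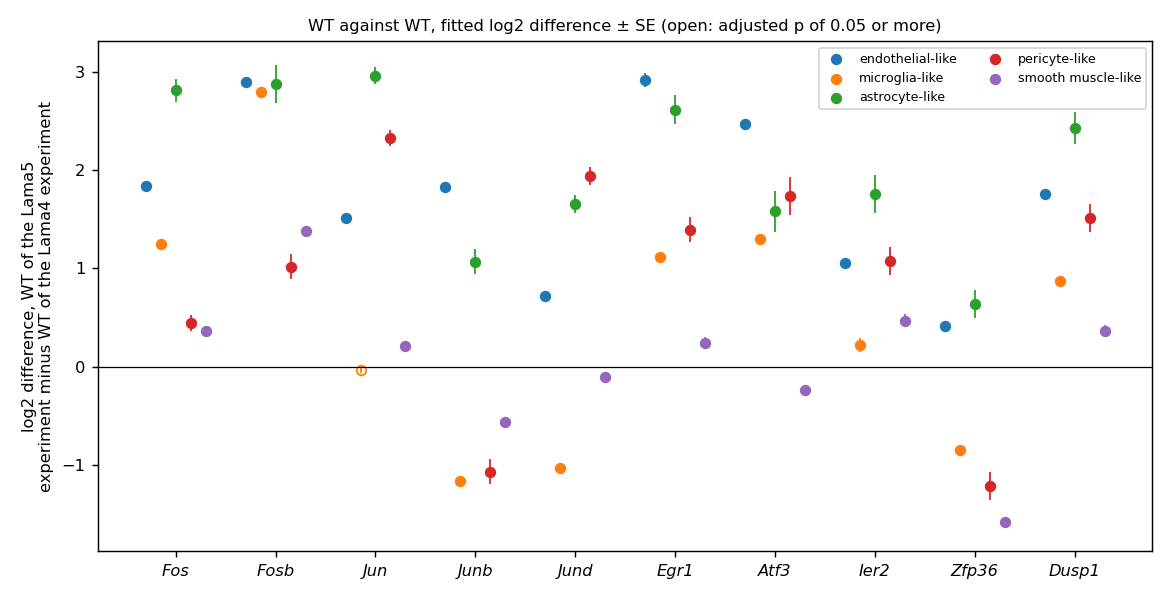
Fitted log2 difference of each gene between the Lama5 WT and the Lama4 WT with its SE, for 5 cell classes with all cells of a class; open points have an adjusted p of 0.05 or more. Endothelial-like and astrocyte-like values are all above 0, and Junb and Zfp36 are below 0 in the other 3 classes, where the pericyte-like values of both turn above 0 without the Col3a1 cluster.

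Whether the WT difference itself depended on the class was tested in a fit of 2 classes at a time, with a block for library and a class by group term. In microglia-like cells all 10 genes had a lower difference than in endothelial-like cells, and 33.0% of 13786 genes passed. The gap was -3.15 for Junb, -1.97 for Egr1, -1.90 for Jund and -0.26 for Fosb, with a median of -0.21 over all genes. Between the shared microglia-like cluster and the Lcn2/Vwf cluster 6 were lower, Jun, Junb, Jund, Egr1, Atf3 and Ier2, and none higher (2.50% of 10815 genes passed). In smooth muscle-like cells all 10 were lower as well (10.9% passed), with gaps of -2.67 for Atf3 and -2.64 for Egr1. In pericyte-like cells 6 were lower and 2, Jun and Jund, were higher (4.29% passed). The pericyte-like gaps depended on the Col3a1 cluster. Without it 7 genes were higher and 2, Fosb and Junb, were lower (5.88% of 13213 genes passed), and the gap turned from -1.47 to 0.78 for Fos, from -0.77 to 1.60 for Atf3 and from -1.69 to 0.81 for Zfp36. In astrocyte-like cells 5 were higher and 2, Atf3 and Junb, were lower (6.59% passed), with Jun at 1.49 and Fos at 1.02. With under 3 microglial UMIs 5 were higher and 2 lower as well (5.22% of 13634 genes passed). Outside the test of shared clusters the endothelial-like side of these gaps used all its clusters.

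The Lama5 KO was compared with its own WT. Each group is 1 pool of mice, so the deletion cannot be told apart from pool and digestion run. Genes that rose or fell were higher or lower in the KO libraries. In endothelial-like cells 3 genes rose and 6 fell, each by a small amount, and 19.0% of 12955 genes passed (10.4% rose and 8.58% fell). The median of the 10 was -0.05 and that of all genes 0.00. Fosb was at 1476 and 1494 CPM in the WT libraries against 1663 and 1619 in the KO libraries, and rose by 0.22 ± 0.017, adjusted p = 6.3e-16. Egr1 was at 999 and 999 CPM in the WT libraries against 1034 and 1025 in the KO libraries (0.12 ± 0.018, adjusted p = 2.0e-07). Atf3 rose by 0.11 ± 0.019, adjusted p = 8.5e-06, although 1 of its KO libraries, at 1217 CPM, was below both WT libraries at 1234 and 1234. Fos was at 2196 and 2169.6 CPM in the WT libraries against 1942 and 1853 in the KO libraries, with a difference of -0.12 ± 0.017, adjusted p = 1.4e-07. Jund was at 1859 and 1929.8 CPM in the WT libraries against 1652 and 1621 in the KO libraries (-0.13 ± 0.018, adjusted p = 3.2e-08) and Zfp36 at 644 and 626 CPM in the WT libraries against 562 and 541 in the KO libraries (-0.12 ± 0.020, adjusted p = 3.3e-06). Jun, Ier2 and Dusp1 fell with values of -0.07, -0.05 and -0.05 (adjusted p = 0.0011, 0.038 and 0.044 by edgeR). Junb did not pass, at -4.9e-04 (adjusted p = 0.99).

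Gm42418 took 6.66% and 7.34% of the endothelial-like UMIs in the KO against 3.72% and 3.63% in its WT; its part in these small differences was not tested. With library totals in place of TMM 1 of the 10 rose and 7 fell, 5.76% of all genes rose and 21.1% fell, and all genes moved by a median of -0.08. Within the Lcn2/Vwf cluster 1 gene rose, Fosb at 0.22, and 5 fell (7.05% of 10306 genes passed): Zfp36 at -0.31, Fos at -0.27, Jun at -0.20, Junb at -0.17 and Jund at -0.15.

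The endothelial-like clusters took different shares of the cells in the KO. The cluster led by Abcb1a and Cldn5 held 41.2% and 46.6% of the KO cells against 27.8% and 29.2% of the WT cells and the one led by Abcb1a and Slc38a5 24.7% and 22.0% against 35.2% and 33.7%. Within the first, 5 genes rose and Jund fell (6.88% of 10354 genes passed). Fos, at 1642 and 1653 CPM in the WT libraries against 1704 and 1668 in the KO libraries, was among those that rose (0.13, adjusted p = 2.4e-04), with Atf3 at 0.45, Fosb at 0.38, Egr1 at 0.30 and Junb at 0.11. Within the second, 3 rose and 4 fell (10.1% of 11147 passed), with Fosb at 0.29 and Fos at -0.11. Within the cluster led by Gkn3 and Abcb1a, 2 rose and 2 fell (6.81% of 10879 passed), with Fosb at 0.12 and Fos at -0.13. The direction of Fos, Jun, Junb and Zfp36 in the first cluster was thus the opposite of that in all endothelial-like cells, for Jun and Zfp36 without passing (0.0449 and 0.0860).

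In microglia-like cells 1 gene rose and 6 fell, where 13.7% of 9599 genes passed (8.66% rose and 5.02% fell). Fosb was at 742 and 739.5 CPM in the WT libraries against 882 and 939 in the KO libraries and rose by 0.38 ± 0.043, adjusted p = 6.8e-08. Ier2 was at 275 and 226 CPM in the WT libraries against 133 and 139 in the KO libraries, the largest fall of the class (-0.80 ± 0.080, adjusted p = 4.9e-09). Jun was at 4006 and 3831 CPM in the WT libraries against 2786 and 2796 in the KO libraries (-0.41 ± 0.032, adjusted p = 2.2e-11) and Egr1 at 660.1 and 614 CPM in the WT libraries against 468 and 458 in the KO libraries (-0.38 ± 0.049, adjusted p = 7.2e-07). Fos, at 1230.2 and 1213 CPM in the WT libraries against 874 and 950.4 in the KO libraries, fell as well (-0.34 ± 0.042, adjusted p = 2.7e-07). Junb and Zfp36 fell with values of -0.30 and -0.22. Jund, Atf3 and Dusp1 did not pass, at -0.04, -0.01 and 0.07. With library totals 1 rose and 8 fell (5.35% and 8.84% of all genes). Within the cluster led by Plek and Il1a, which took 68.4% and 64.4% of WT cells against 72.2% and 71.5% of KO cells, 1 rose and 6 fell (12.1% of 9130 genes passed). Within the shared cluster none of the 10 passed by edgeR and 4 had an unadjusted p under 0.05, 1.73% of 5369 genes passed, and the value of Fos was 0.34 (adjusted p = 0.084), Zfp36 0.01 and Ier2 -0.48 (adjusted p = 0.12). That cluster held 294 and 281 cells in the KO and 182 and 197 in the WT.

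In astrocyte-like cells 7 genes rose and 1 fell, where 14.1% of 8886 genes passed (8.36% rose and 5.73% fell). Microglial RNA moved with this result. The 7 microglial markers summed to 10.1% and 6.98% of their microglia-like level in the astrocyte-like cells of the KO libraries, and to 1.69% in each of the WT libraries. None of the 7 was at 0 throughout the libraries. All 5 tested genes of the microglial activation list rose with them, by 1.75 to 2.68. Atf3 was at 80.0 and 108 CPM in the WT libraries against 302 and 247 in the KO libraries (1.48 ± 0.17, adjusted p = 6.5e-06). The KO values of Atf3 were 9.24% and 7.71% of the level in microglia-like cells of the same libraries. This share was higher for the other genes that rose. It was 21.8% and 9.94% for Zfp36, 31.4% and 26.4% for Junb, and 43.1% and 30.2% for Fosb. For Egr1 it was 66.9% and 66.7%, for Dusp1 66.6% and 84.1%, and for Jun 72.2% and 72.3%. Zfp36 was at 90.1 and 93.9 CPM in the WT libraries against 242 and 111 in the KO libraries (0.88 ± 0.23, adjusted p = 0.015), Junb at 237 and 287 CPM in the WT libraries against 533 and 467 in the KO libraries (0.87 ± 0.13, adjusted p = 1.6e-04) and Jun at 1343 and 1363 CPM in the WT libraries against 2011 and 2022 in the KO libraries (0.52 ± 0.11, adjusted p = 0.0023). Fosb, Egr1 and Dusp1 rose by 0.83, 0.59 and 0.56, and Fos, at 992 and 1006 CPM in the WT libraries against 732 and 647 in the KO libraries, fell (-0.59 ± 0.11, adjusted p = 0.0013).

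In the astrocyte-like cells with under 3 UMIs of the microglial markers (196 and 208 of 236 and 250 cells in the KO, 281 and 326 of 303 and 346 in the WT), 2 genes rose and 1 fell, and 1.55% of 8155 genes passed. The rises were Jun at 0.52 (adjusted p = 2.8e-04) and Dusp1 at 0.59 (adjusted p = 0.0037), and the fall was Fos at -0.45 (adjusted p = 0.0097). Atf3 was then at 0.32 (adjusted p = 0.56), Egr1 at 0.08 and Zfp36 at -0.16, which turned its direction. These cells held 368569 and 430407 UMIs in the KO and 912348 and 1003883 in the WT. The limit is a count per cell, which deep cells reach more easily, so it also took out depth. Nearly all astrocyte-like cells of this experiment lay in a pair of clusters, and the one led by Dclk1 and Gria2 held 79.2% and 71.6% of the KO cells against 56.8% and 54.3% of the WT cells. Within the other, led by Dclk1 and Aqp4, Jun (0.58) and Jund (0.64) rose and Fos fell, at 1174 and 1144 CPM in the WT libraries against 827 and 749 in the KO libraries (-0.51, adjusted p = 0.016), where 0.417% of 6717 genes passed. Within the one led by Dclk1 and Gria2 4 rose, Egr1 at 1.39, Atf3 at 1.12, Junb at 0.79 and Fosb at 0.75, and none fell (8.87% of 5299 passed). Fos there was at 532 and 562 CPM in the WT libraries against 678 and 552 in the KO libraries (0.08, adjusted p = 0.84). With library totals 8 members rose and 1 fell in the whole class (9.43% and 4.04% of all genes). Without either WT library in turn, 3 or 4 of the 10 passed in all astrocyte-like cells (3 without the first, 4 without the second). The KO cells also had lower depth, a median of 1211.5 and 1446 UMIs against 2171 and 1955.

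In pericyte-like cells 1 gene rose and 2 fell, where 0.339% of 6196 genes passed (0.258% rose and 0.0807% fell). Fosb was at 706 and 864 CPM in the WT libraries against 1294 and 1039 in the KO libraries (0.63 ± 0.11, adjusted p = 0.0061). Jund was at 4715 and 4563 CPM in the WT libraries against 3377 and 3475 in the KO libraries (-0.38 ± 0.048, adjusted p = 6.7e-05) and Jun at 6603 and 6878 CPM in the WT libraries against 5667 and 5543 in the KO libraries (-0.21 ± 0.039, adjusted p = 0.0098). Dusp1, at 881 and 862 CPM in the WT libraries against 585 and 640.2 in the KO libraries, did not pass (-0.45 ± 0.10, adjusted p = 0.055), nor did Junb (0.45 ± 0.10, adjusted p = 0.056). Without the first or without the second KO library 5 of the 10 passed in pericyte-like cells, and with the finer clustering Fos fell (-0.31). Without the Col3a1 cluster 1 rose and 3 fell (0.488% of 5940 genes passed). Library totals gave 1 rise and 3 falls in the whole class (0.145% and 0.129% of all genes). In smooth muscle-like cells 2 genes rose, Egr1 (0.30 ± 0.049, adjusted p = 1.3e-04) and Fosb (0.16 ± 0.041, adjusted p = 0.014), and 2 fell, Fos (-0.38 ± 0.041, adjusted p = 1.2e-07) and Jun (-0.30 ± 0.039, adjusted p = 3.6e-06), where 5.91% of 9578 genes passed (4.53% rose and 1.38% fell). Fos was at 4834 and 4399 CPM in the WT libraries against 3279 and 3377 in the KO libraries, Jun at 2505 and 2528 CPM in the WT libraries against 1924 and 1911 in the KO libraries and Egr1 at 723 and 693 CPM in the WT libraries against 826 and 802 in the KO libraries, none with overlap. Without the first KO library 1 of the 10 passed in this class, and library totals gave 1 rise and 3 falls (2.38% and 4.35% of all genes).

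Over all cells of a class, Fosb passed as a rise in all 5 classes and Fos as a fall in 4, all except pericyte-like cells; Jun fell in 4 and rose in astrocyte-like cells. Fosb did not pass in astrocyte-like cells with under 3 microglial UMIs, neither Fosb nor Fos passed in the shared microglia-like cluster, and Fos rose in the endothelial-like cluster led by Abcb1a and Cldn5. The difference between classes was tested as above. Microglia-like cells differed from endothelial-like cells in 7 genes, 6 of them lower (6.07% of 12980 genes passed), with Ier2 at -0.75 and Egr1 at -0.49. Between the shared microglia-like and Lcn2/Vwf clusters 1 gene differed, Fos, which was higher (0.64, adjusted p = 0.0052), where 0.196% of 10725 genes passed. Astrocyte-like cells differed in 8, 7 of them higher (7.83% passed), with Atf3 at 1.35; the KO cells carried the larger share of microglial RNA given above. With under 3 microglial UMIs none passed by edgeR and 4 had an unadjusted p under 0.05, where 1.43% of 13515 genes passed. Atf3 was then at 0.11 ± 0.26 (adjusted p = 0.95 by edgeR), against 1.35 ± 0.18 in all astrocyte-like cells. The wider SE came with fewer UMIs, as given above. Smooth muscle-like cells differed in 3, Fos, Jun and Egr1 (1.35% passed), and pericyte-like cells in none by edgeR, with 6 at an unadjusted p under 0.05 (0.0309% of genes passed). Without the Col3a1 cluster Dusp1 was lower in pericyte-like cells (-0.48, adjusted p = 0.027), where 0.101% of 12879 genes passed.

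**Figure D3:**
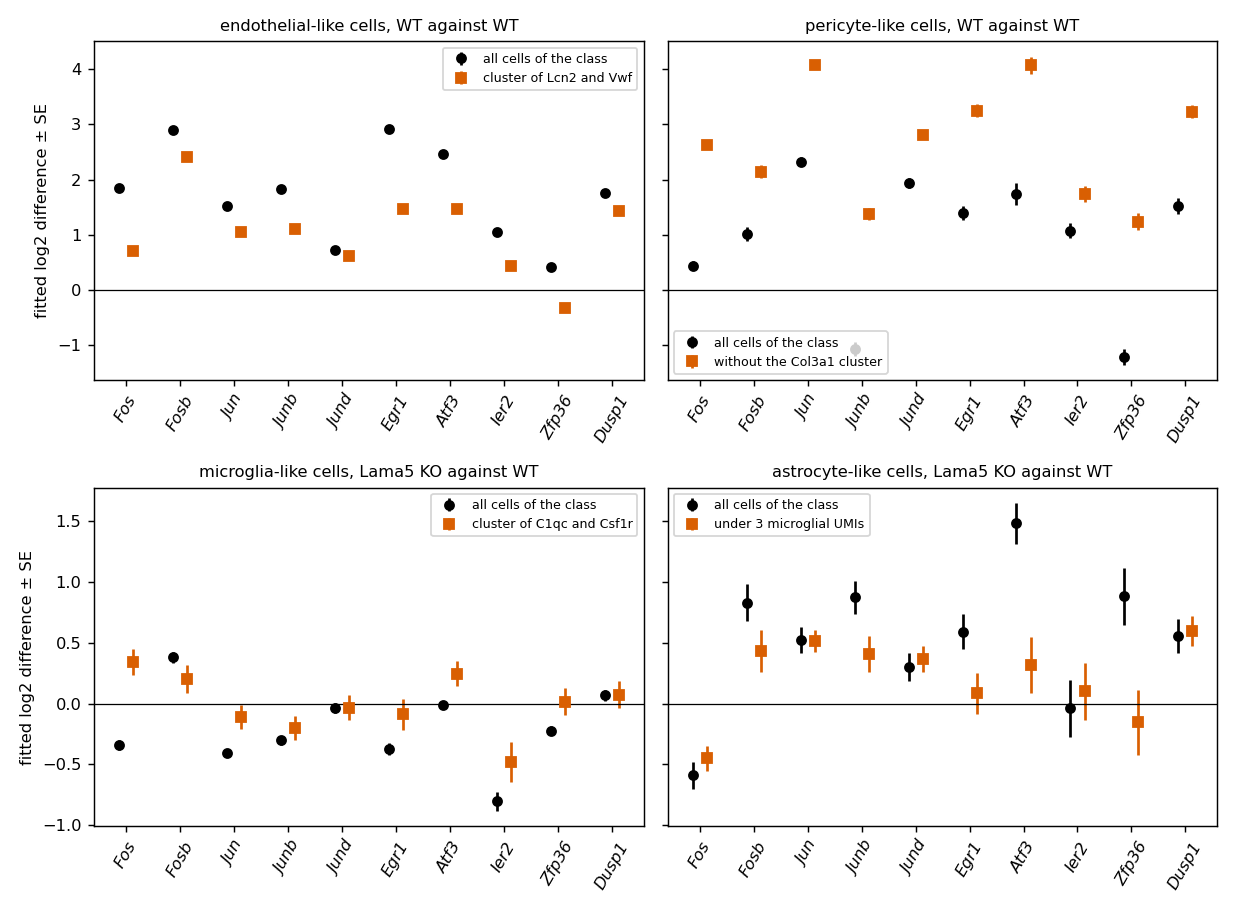
Fitted log2 difference and SE of each gene in all cells of a class (black circles) and in part of its cells (orange squares): the Lcn2/Vwf cluster, pericyte-like cells without the Col3a1 cluster, the shared microglia-like cluster, and astrocyte-like cells with under 3 microglial UMIs. Without the Col3a1 cluster all 10 pericyte-like values are above 0, and Atf3 in astrocyte-like cells drops from 1.48 to 0.32.

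For the Lama4 KO the values are 1 library against 2, as log2 ratios of CPM with a pseudocount of 1 CPM and no test. Here too genotype cannot be told apart from pool and digestion run. In endothelial-like cells 7 of the 10 had a ratio above 0, 6 lay above and 2 below both WT libraries (54.5% and 26.5% of 6375 genes at 20 CPM or more did), and the median ratio was 0.13 against 0.04 over all genes at 20 CPM or more. Above a ratio of 0.5 lay 1 member, Egr1, and 0.314% of 6375 genes; below -0.5 lay no member and 0.91% of genes. Egr1 was at 209 CPM in the Lama4 KO against 159 and 126 in its WT (95% exact Poisson interval of the KO value 202 to 217, counting error only), a ratio of 0.55; its WT libraries differed from each other by 0.33. Dusp1 was at 909 CPM in the Lama4 KO against 745 and 671 in its WT (0.36) and Fosb at 263 CPM in the Lama4 KO against 231 and 199.6 in its WT (0.29). Zfp36, Ier2 and Fos had ratios of 0.18, 0.15 and 0.10. Jun, Junb, Jund and Atf3 lay between -0.09 and 0.00.

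In microglia-like cells no member passed a ratio of 0.5 either way, where 0.485% of 5562 genes were above and 1.35% below, and the median was 0.07. Dusp1, at 401 CPM in the Lama4 KO against 306 and 291 in its WT, had the highest ratio (0.43), and Atf3, at 904 CPM in the Lama4 KO against 1242 and 1213 in its WT, the lowest (-0.44). A cluster led by Cd74 and other MHC class II genes held 53 cells of the KO and 1 cell of its WT, and the shared cluster held 17.1% of the KO cells against 9.59% and 9.38%. Above both WT libraries lay 5 members and 48.5% of all genes, and below both lay 3 members and 32.6% of all genes. In smooth muscle-like cells 8 of the 10 members lay above both WT libraries and 1 below, where 42.0% and 34.8% of all genes did. A ratio above 0 was held by 9 of the 10. Fos alone passed 0.5, where 1.48% of 5754 genes did and 3.04% were below -0.5. Fos was at 4824 CPM in the Lama4 KO against 3439 and 3349 in its WT (0.51), and Dusp1, Zfp36 and Egr1 had ratios of 0.30, 0.29 and 0.27. Atf3, at 1146 CPM in the Lama4 KO against 1309 and 1411 in its WT, had the only ratio below 0, -0.25.

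The Lama4 KO ratios of the 2 smaller classes were below 0 for 8 of the 10 genes each. Below both WT libraries lay 8 members in astrocyte-like and 7 in pericyte-like cells, where 32.9% and 33.6% of all genes did. In astrocyte-like cells 3 members passed -0.5 among the 9 at 20 CPM or more, where 3.29% of 6750 genes passed -0.5 and 1.72% passed 0.5. Egr1 was at 17.3 CPM in the Lama4 KO against 32.7 and 31 in its WT and Atf3 at 19.4 CPM in the Lama4 KO against 37.8 and 24.4 in its WT, and Ier2 at 11 CPM in the Lama4 KO against 27.1 and 27.7 in its WT, with ratios of -0.84, -0.65 and -1.24. Fosb was at 8.4 CPM in the Lama4 KO against 32.1 and 15.8 in its WT, where the WT libraries differed from each other by 0.98. The median of -0.43 was 0.07 with likely doublets kept and -0.77 in cells with under 3 microglial UMIs. In pericyte-like cells 2 members passed -0.5, Zfp36 (-0.79) and Atf3 (-0.77), where 6.29% of 6946 genes passed -0.5 and 5.74% passed 0.5. The median of -0.30 was 0.05 without the Col3a1 cluster.

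To count genes per cell at 1 depth, each cell was thinned to 2000 UMIs and shallower cells were left out, 128, 123 and 179 endothelial-like cells of the Lama4 experiment and 682 to 1352 per library of the Lama5 experiment. Endothelial-like cells then held a UMI of 4.24 to 4.43 of the 10 genes on average in the libraries of the Lama4 experiment and 8.01 to 8.10 in those of the Lama5 experiment. At least 8 of the 10 were found in 8.17% to 9.87% of cells in the former and in 69.9% to 72.2% in the latter. The KO and WT libraries of the Lama5 experiment overlapped in this mean. Microglia-like cells had 5.06 to 5.22 and 6.90 to 7.31 genes, and smooth muscle-like cells 6.23 to 6.83 and 6.98 to 7.38. Pericyte-like cells had 2.99 to 3.23 and 6.70 to 7.22, and astrocyte-like cells 1.07 to 1.27 and 2.61 to 4.04. The median astrocyte-like cell of each Lama5 KO library was under 2000 UMIs, so most of these cells were left out.

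**Figure D4:**
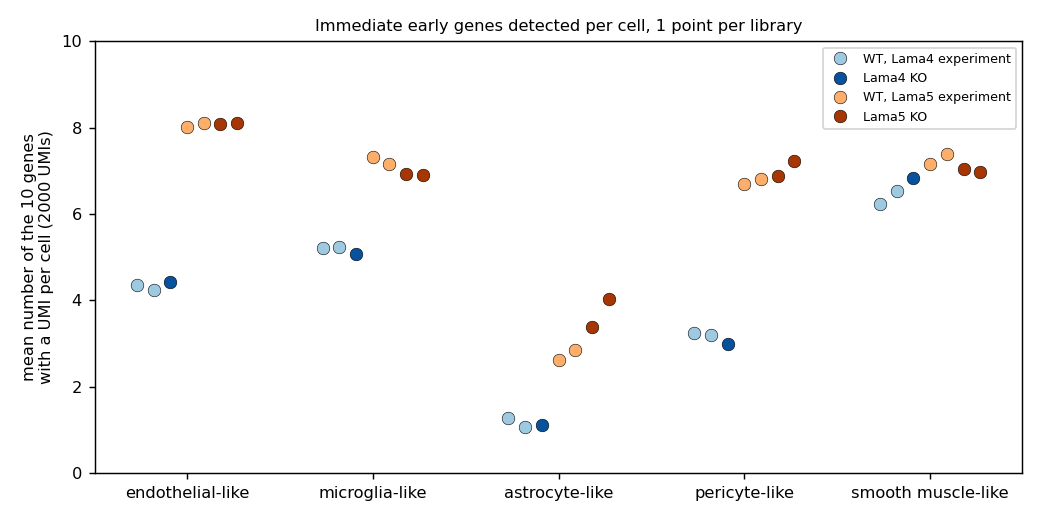
Mean number of the 10 genes with at least 1 UMI per cell after thinning to 2000 UMIs, 1 point per library, for 5 cell classes. The endothelial-like libraries of the Lama4 experiment lie between 4.24 and 4.43 and those of the Lama5 experiment between 8.01 and 8.10.

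Fosb had a UMI in 15.5% to 16.8% of endothelial-like cells in the Lama4 experiment and in 78.2% to 81.9% in the Lama5 experiment, and without thinning in 25.5% or more and 77.7% or more. In astrocyte-like cells the shares were 0.8% to 2.8% and 18.2% to 29.9%. Egr1 had a UMI in 8.5% to 12.9% and 66.8% to 70.7% of endothelial-like cells, and Fos in 30.4% to 31.4% and 80.9% to 82.2%. For the level of free RNA, C1qa, a microglial gene, had a UMI in 4.45% to 11.0% of endothelial-like cells and in 99.9% or more of microglia-like cells. Cldn5, an endothelial gene, had one in 2.41% to 7.81% of microglia-like and 99.1% or more of endothelial-like cells. C1qa had one in 5.29% to 27.8% of astrocyte-like cells. The share of these genes' UMIs that came from free RNA was not tested.

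Members were found together in endothelial-like cells more often than the product of their shares. This held for 45 of 45 pairs in all 7 libraries, with ratios of 1.00 to 3.54. Fos and Fosb shared 11.3% of cells in the first Lama4 WT library, where the product of their shares was 5.08%, and 68.6% in the first Lama5 WT library, where the product was 63.5%. The ratio is bounded when both shares are near 100%, so the ratios of the experiments are not set against each other. It was above 1 in all libraries for 41 pairs in smooth muscle-like, 29 in astrocyte-like, 26 in pericyte-like and 24 in microglia-like cells. The endothelial-like clusters pooled in these pairs had unlike levels. In the first Lama4 WT library Fos was at 326 CPM in the cluster led by Itm2a and Cldn5. It was at 3133 CPM in that led by Gkn3 and Abcb1a. No ratio within a cluster or for other genes is given, and the part of such pooling was not tested. The cells of a library share its source and are not replicates, so no test was made.

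Other genes of the same response were counted from lists over whole classes, not within single clusters. The clusters of some classes divided by experiment, as given above. In the endothelial-like WT comparison, where 28.2% of all genes were higher and 26.0% lower, 19 of 20 other feedback and response genes were higher in the Lama5 WT and none lower, with a median of 1.36; the 4 with the largest differences were Dusp5 (2.79), Gadd45b (2.26), Dusp2 (1.95) and Zfp36l2 (1.89). Of 16 other immediate early transcription factors 14 were higher and none lower, led by Egr2 (2.88), Egr3 (2.84), Fosl1 (2.43) and Klf4 (1.59). Of the 14 upstream kinases and factors 4 were higher and 4 lower, a share close to that of all genes, with Srf at 0.39, Mapk3 at -0.33, Map2k2 at -0.27 and Rps6ka5 at -0.24. Heat shock genes divided, 3 higher and 4 lower: the inducible Hsp70 genes Hspa1b and Hspa1a were lower (-1.71 and -1.49), while the co-chaperone Dnajb1 and Hsp90aa1 were higher (1.32 and 1.22). Of 8 microglial activation genes 1, Nfkbid, was higher (1.19) and 4 were lower, among them the chemokines Ccl3 (-1.05), Ccl4 (-0.96) and Ccl2 (-0.72).

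In microglia-like cells 6 of the 20 feedback and response genes were higher and 11 lower in the Lama5 WT, and 0 of 8 heat shock genes were higher and 7 lower, with a median of -1.70, beside 27.1% of all genes higher and 25.2% lower. Pericyte-like cells had 8 of 8 heat shock genes higher, with a median of 2.18, beside 6.33% of all genes higher and 4.24% lower. Of the other transcription factors 9 of 15 tested were higher and 5 lower in microglia-like cells, and 4 of 12 higher and 3 lower in pericyte-like cells. The pericyte-like counts include the Col3a1 cluster, and counts of the lists without it are not given.

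In the Lama5 KO 14 of the 20 feedback and response genes rose in endothelial-like cells and 2 fell (median 0.24; 10.4% of all genes rose and 8.58% fell), led by Dusp2 (0.60), Tnfaip3 (0.43), Sgk1 (0.41) and Gadd45b (0.40). Of the other transcription factors 11 rose and 2 fell (median 0.15): Fosl1 rose by 1.38, Cebpb by 0.41 and Fosl2 by 0.34, and Klf2, a factor induced by flow, fell (-0.25). Heat shock genes rose in 5 cases and fell in 2, Hspa1b (-0.54) and Hspa1a (-0.22), with Dnajb1 at 0.24 and Hsph1 at 0.23. Of the microglial activation genes 5 rose, led by Cxcl2 (1.15), Il1a (0.81), Ccl2 (0.80) and Ccl4 (0.68). Microglial markers summed to 0.74% and 0.78% of their microglia-like level in these KO libraries and to 0.50% and 0.51% in the WT. In microglia-like cells of the same KO Cxcl2 fell (-1.56), while Ccl2, Il1a and Ccl4 rose (0.41, 0.21 and 0.11). The part of microglial RNA in the endothelial-like rises was not tested. Of the upstream list only Mapk3 passed (-0.16). In microglia-like cells 3 feedback and response genes rose and 11 fell (median -0.40), beside 8.66% of all genes that rose and 5.02% that fell.

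In the Lama4 KO, with no test, the endothelial-like median ratio was 0.25 for the other transcription factors and -0.04 for the feedback and response genes, with Egr3 at 1.39, Klf10 at -0.49, Sgk1 at 0.41 and Btg2 at 0.40. It was -0.33 for the 8 heat shock genes, all below both WT libraries, as were 26.5% of all genes, with Hsph1 at -0.62 and Hspa1a at -0.54. Rps6ka5 and Elk3 of the upstream list had ratios of 0.39 and -0.22. Ccl3 and Ccl4 had ratios of -0.88 and -0.62.

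Likeness was taken over the 35 values of 5 classes in 7 libraries, as Pearson's r with the mean standardised log2(CPM + 1) of the 10 genes. Among 7241 genes of mean 20 CPM or more, those outside the lists with the highest r were Alkbh5 (0.896), Gpx1 (0.893), Pnrc1 (0.892), Ptma (0.887) and Actb (0.87). Among the listed genes Ier3 (0.928) and Btg2 (0.918) were most like the mean. Of the members, which are part of the mean, Egr1 had the highest r (0.943) and Zfp36 the lowest (0.752). The pairs of members ran from 0.458 for Fosb with Zfp36 to 0.93 for Junb with Zfp36. The points share libraries and classes, so these values are a description.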

How the data were processed

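Single-cell RNA counts from the cortex of 4 groups were used, 8 deposited samples of which 7 were distinct. Per the file headers and labels, the authors deposited counts of UMIs per gene and barcode from Chromium 3' v3 libraries made with Cell Ranger 3.1.0; the submitters' processing notes also name Seurat 3.1 and mm10. Nothing was normalised before deposit. Of 31053 gene IDs, 30934 were in GENCODE M21. Barcodes with under 500 genes or over 15% mitochondrial UMIs were dropped (50254 of 56961 remained), 3015 likely doublets were removed by simulated doublets, and the rest were clustered (2000 variable genes without the listed genes, 30 components, 15 neighbours, resolution 1, igraph 0.11.9, scikit-learn 1.9.0, Python 3.11.15). Clusters were named from marker lists.

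Counts were summed per library and class and tested with edgeR 4.0.16 (filterByExpr, TMM, quasi-likelihood test, Benjamini-Hochberg over all tested genes, threshold 0.05; R 4.3.3); DESeq2 1.42.0 was an alternative. Values in CPM are shares of the class total. The Lama4 KO has 1 library and no test. All 10 members are named throughout; from each other list up to 4 called endothelial-like genes are named (for the Lama4 KO, up to 2 at 20 CPM or more), and the 5 likest genes. The members and lists were chosen with earlier results of these data known. The tests between classes, in whole classes and in part of their cells, the single clusters (at least 40 cells in each library compared), the microglial UMI limit and the cells without the Col3a1 cluster were added after values were seen. On simulated counts with 200 genes changed 2-fold, the Lama5 KO comparison found 190 in endothelial-like, 146 in microglia-like, 126 in astrocyte-like, 125 in pericyte-like and 148 in smooth muscle-like cells. It also called 11, 6, 4, 2 and 2 unchanged genes. Over all cells of a class, the member differences of the Lama5 KO were smaller than 2-fold, except Atf3 in astrocyte-like cells. The simulation does not cover these smaller differences. Intervals cover counting error only.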

Additional observations from a re-analysis of the deposited data

Results flagged for a closer look

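The difference between the WT groups depended on the cell class by a test of the difference against endothelial-like cells: in microglia-like cells for 10 of the 10 genes, in smooth muscle-like cells for 10, in pericyte-like cells for 8 and in astrocyte-like cells for 7. Of all genes tested, 33.0%, 10.9%, 4.29% and 6.59% passed this test. In pericyte-like cells without the Col3a1 cluster 9 genes passed, with Fos, Atf3 and Zfp36 in the opposite direction. The shared clusters gave 6 in microglia-like cells, and astrocyte-like cells with under 3 microglial UMIs gave 7. The Lama5 KO difference depended on the class for 7 genes in microglia-like, 8 in astrocyte-like and 3 in smooth muscle-like cells, where 6.07%, 7.83% and 1.35% of all genes passed. The shared clusters gave 1 in microglia-like cells, Fos, which was higher, and astrocyte-like cells with under 3 microglial UMIs gave none by edgeR, with 4 at an unadjusted p under 0.05.

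Some genes lay outside their WT range on opposite sides in the Lama4 KO and the Lama5 KO. This was not tested, since the Lama4 KO is 1 library, and it held for 37.0%, 29.7%, 24.8%, 15.5% and 24.8% of all genes in endothelial-like, microglia-like, astrocyte-like, pericyte-like and smooth muscle-like cells; the endothelial-like count of 4 in 10 is close to that share. In endothelial-like cells it held for 4 genes (Fos, Ier2, Zfp36 and Dusp1, higher in the Lama4 KO). In microglia-like cells it held for 5 (Fos, Fosb, Egr1, Ier2 and Zfp36), in astrocyte-like cells for 6 (Fosb, Jun, Junb, Egr1, Atf3 and Zfp36), in pericyte-like cells for 4 (Fosb, Junb, Atf3 and Zfp36) and in smooth muscle-like cells for 6 (Fos, Junb, Jund, Ier2, Zfp36 and Dusp1). These sets depended on the clusters pooled. In the larger pericyte-like cluster alone it held for Fosb, Jun, Ier2 and Dusp1. There Junb was above its WT in both KOs, and Atf3 and Zfp36 lay within the Lama4 WT range. In the shared microglia-like cluster it held for Fos and Atf3, lower in the Lama4 KO and higher in the Lama5 KO. The share of all genes within these clusters is not given.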

How the results depend on the processing

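Of 120 alternative counts of members that passed, other than those leaving out a library, 102 were within 1.5 times the reported count. For the WT groups the exceptions were the endothelial-like clusters led by Gkn3 and Abcb1a (5) and by Itm2a and Cldn5 (6) and the astrocyte-like cluster led by Dclk1 and Gria2 (6). For the Lama5 KO, DESeq2 called 5 members in astrocyte-like and 1 in pericyte-like cells; no filter on low counts gave 5 in pericyte-like and 1 in smooth muscle-like cells; clustering at resolution 2 gave 5 in astrocyte-like, 5 in pericyte-like and 1 in smooth muscle-like cells; clustering with the listed genes gave 5 in astrocyte-like cells; 1 fit of all 7 libraries gave 1 in pericyte-like cells. The shared microglia-like cluster gave 0 by edgeR, and astrocyte-like cells with under 3 microglial UMIs gave 3. The endothelial-like cluster led by Gkn3 and Abcb1a gave 4, and the astrocyte-like clusters led by Dclk1 and Gria2 and by Dclk1 and Aqp4 gave 4 and 3. The members whose Lama5 KO difference differed from that in endothelial-like cells numbered 1 in the shared microglia-like cluster, 0 in astrocyte-like cells with under 3 microglial UMIs (4 at an unadjusted p under 0.05) and 1 in pericyte-like cells without the Col3a1 cluster, all by edgeR; for the WT groups the shared microglia-like cluster gave 6. At resolution 2 the pericyte-like class was larger and the smooth muscle-like class smaller, as given above, so their values there are of other sets of cells. The cause of the other changes was not tested.

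Leaving out each library gave 6 to 8 members for the Lama5 KO in endothelial-like, 7 to 7 in microglia-like, 3 to 7 in astrocyte-like, 2 to 5 in pericyte-like and 1 to 4 in smooth muscle-like cells. For the WT groups it gave 10 to 10 in endothelial-like, astrocyte-like and pericyte-like, 8 to 9 in microglia-like and 9 to 9 in smooth muscle-like cells. The Lama4 KO median ran from 0.0797 to 0.171, 0.0196 to 0.0828, -0.55 to -0.25, -0.42 to -0.16 and 0.12 to 0.23 in endothelial-like, microglia-like, astrocyte-like, pericyte-like and smooth muscle-like cells.

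Directions turned in 25 of 1200 alternatives for single members without a left-out library. For the WT groups these were Zfp36 in the shared endothelial-like cluster (-0.32), Jund (-0.0481), Ier2 (-0.0422) and Zfp36 (-0.24) in that led by Gkn3 and Abcb1a, Jund (-0.27), Ier2 (-0.0813) and Zfp36 (-0.0777) in that led by Itm2a and Cldn5, Jun (library totals, 0.16) and Ier2 (shared cluster, -0.59) in microglia-like cells, Junb (resolution 2, 0.33) and, without the Col3a1 cluster, Junb (1.38) and Zfp36 (1.24) in pericyte-like cells, and Jun at resolution 2 in smooth muscle-like cells (-0.51). For the Lama5 KO they were Fos (0.13), Jun (0.0449), Junb (0.11) and Zfp36 (0.0860) in the endothelial-like cluster led by Abcb1a and Cldn5, Fos in the astrocyte-like cluster led by Dclk1 and Gria2 (0.0764), Junb (-0.0455), Atf3 (-0.0311) and Zfp36 (-0.21) in that led by Dclk1 and Aqp4, Fos (0.34) and Zfp36 (0.0138) in the shared microglia-like cluster, Zfp36 in astrocyte-like cells with under 3 microglial UMIs (-0.16) and Fos in pericyte-like cells at resolution 2 (-0.31).

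The Lama4 KO median was 0.0394 in endothelial-like and 0.0548 in smooth muscle-like cells at resolution 2, 0.0164 with TMM and -0.0828 in the shared cluster in microglia-like cells, and 0.0470 without the Col3a1 cluster in pericyte-like cells. With the strict cell filter it was -0.82 in astrocyte-like and 0.24 in smooth muscle-like cells. In astrocyte-like cells it was 0.0656 with doublets and -0.77 with under 3 microglial UMIs. Thinning to 1000 UMIs gave a mean share of cells with a UMI of 30.6% and 63.5% in the Lama4 and Lama5 experiments for endothelial-like, 42.7% and 56.2% for microglia-like, 7.13% and 22.0% for astrocyte-like, 20.2% and 51.1% for pericyte-like and 52.6% and 56.5% for smooth muscle-like cells.

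Same-numbered libraries did not deviate together (r from -0.0064 to 0.031 across genes), so the replicate numbers do not pair them. With the replicate number as a block, 6 members passed for the Lama5 KO in pericyte-like cells, 3 in each direction, and 68 of all genes against 21. 

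Counts over all genes moved by over 1.5 times as follows. For the Lama5 KO, DESeq2 called 786 against 2456 in endothelial-like, 425 against 1313 in microglia-like, 335 against 1252 in astrocyte-like, 5 against 21 in pericyte-like and 175 against 566 in smooth muscle-like cells. For the WT groups it called 4229 against 7047, 3480 against 5819, 328 against 1315, 264 against 853 and 854 against 2785. Restricting the cells as above gave 727, 93 and 126 for the Lama5 KO in endothelial-like, microglia-like and astrocyte-like cells, and 3885 and 557 for the WT groups in the first 2. The other single clusters gave 301 to 395 for the WT groups and 712 to 1126 for the Lama5 KO in endothelial-like cells, and 376 and 754 (WT) and 470 and 28 (Lama5 KO) in astrocyte-like cells. The strict filter gave 798 for the WT groups in astrocyte-like cells. At resolution 2 the larger pericyte-like class gave 453 (Lama5 KO) and 2400 (WT), and the smaller smooth muscle-like class 83 and 1369. With no filter they gave 44 and 20 for the Lama5 KO in those classes, and 1651 for the WT groups in smooth muscle-like cells; 1 fit of all libraries gave 11 in pericyte-like cells. Leaving out 1 library gave as few as 857, 480 and 27 for the Lama5 KO in microglia-like, astrocyte-like and smooth muscle-like cells (each without the first KO library), up to 36 in pericyte-like cells, and 1552 for the WT groups in smooth muscle-like cells.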
